A study of Rattus norvegicus with 6 samples.

Results

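The genes described here are 9 components of insulin signalling: the insulin receptor Insr, the docking proteins Irs1 and Irs2, the regulatory PI3-kinase subunit Pik3r1, the kinases Akt1 and Akt2, the glucose transporter Slc2a4 (Glut4), the transcription factor Foxo1 and the receptor-binding adaptor Grb14. They were taken by symbol from a table of 18166 named genes, and all 9 were found, 8 with 1 array feature each and Foxo1 with 2, of which the brighter was used. Messenger RNA was measured on 1-colour Affymetrix arrays in adipose-derived stem cells (ADSCs) of the rat, which are stromal precursors of fat cells, isolated from inguinal fat of female Wistar rats aged 2 weeks. The induced group was 3 cultures kept for 7 days in α-MEM with 0.5 mM 3-isobutyl-1-methylxanthine (a phosphodiesterase inhibitor that raises cAMP), 1 μM dexamethasone (a synthetic glucocorticoid), 5 μg/ml insulin and 20% fetal bovine serum. The control group was 3 cultures in α-MEM with 10% fetal bovine serum. Insulin, the other inducers and the extra serum were given together, so their contributions cannot be told apart. The labels call the 3 arrays of each group biological replicates without saying whether they came from separate animals, so p-values measure only the spread between these cultures.

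Insulin binding activates the receptor's tyrosine kinase, which phosphorylates the IRS docking proteins. These recruit PI3-kinase, whose lipid product brings Akt to the membrane. In fat cells Akt2 is the isoform chiefly linked to glucose uptake: its signal moves vesicles carrying Glut4 to the cell surface. Akt also phosphorylates Foxo1 and keeps it out of the nucleus, while Grb14 binds the activated receptor and restrains it. The values below are transcript levels and say nothing of phosphorylation or of where a protein sits.

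Array medians lay between 5.64 and 5.73 on the log2 scale of the RMA signals used throughout, and differences are induced minus control. Induced replicate 3 stood apart from the other induced arrays. Its correlation with them across features was 0.9681 and 0.9687, while induced replicates 1 and 2 correlated at 0.9894 and control replicate 1 correlated with those 2 at 0.9793 and 0.9816. The mean signal of 11 measured adipocyte markers was 10.72, 10.70 and 11.68 on induced replicates 1 to 3, against 8.50, 7.13 and 7.04 on control replicates 1 to 3. That of 9 stromal precursor markers was 8.85, 8.93 and 7.99 on the induced arrays, against 9.35, 9.16 and 9.20 on the control arrays. All 11 adipocyte markers had induced arrays wholly above control arrays, as did 12.0% of all genes. Of the 9 stromal markers, 4 had induced arrays wholly below, beside 13.4% of all genes, and 5 overlapped. Among these 5 was Pdgfra, which read 11.99, 11.95 and 9.05 in induced cells, against 12.26, 11.77 and 11.61 in control cells. In such bulk RNA, fewer cells of a type and less RNA per cell cannot be told apart. The 12 macrophage and leukocyte markers averaged 7.71, 7.21 and 5.84 on the induced arrays, against 6.65, 6.92 and 5.54 on the control arrays. Skeletal muscle, the other main tissue with Glut4, was checked through 7 measured markers, which averaged 6.11, 6.07 and 6.06 in induced cells, against 6.12, 6.38 and 6.50 in control cells. All 7 overlapped between groups, whereas 25.4% of all genes did not. The 6 measured endothelial markers averaged 5.01, 4.98 and 4.95 in induced cells, against 5.02, 5.09 and 5.17 in control cells. Of these 6, 0 were wholly above control and 1 (Tek, at -0.74) wholly below, beside 12.0% and 13.4% of all genes.

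Slc2a4 showed the largest difference of the 9 genes, an estimated 8.37-fold higher level in induced cells, and Foxo1, Irs1, Pik3r1 and Insr followed at 2.67-fold, 2.44-fold, 2.17-fold and 1.84-fold. For these 5 genes every induced array lay above every control array. Irs2, Akt1, Akt2 and Grb14 overlapped between the groups. None of the 9 (0 of 9) passed limma's test at an adjusted p under 0.05 over all genes, where 0.749% of 18166 genes passed (0.479% higher and 0.270% lower in induced cells), although 5 of 9 had an unadjusted p under 0.05, as did 17.6% of all genes. Without induced replicate 3, 2 of the 9 passed (3.07% of all genes did), and without both replicate 3 arrays 3 (4.07%). With array weights, estimated from how far each array's values in these data lay from the fitted group means, 4 passed (5.11%). Each of the 9 that passed in these fits was higher in induced cells. All 3 induced arrays were above all 3 control arrays for 12.0% of all genes, and a mean at least 2-fold higher in induced cells, seen for 4 of the 9, was found for 2.81%. The median difference of the 9 was 0.88, beside -0.01 for all genes.

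**Figure D1:**
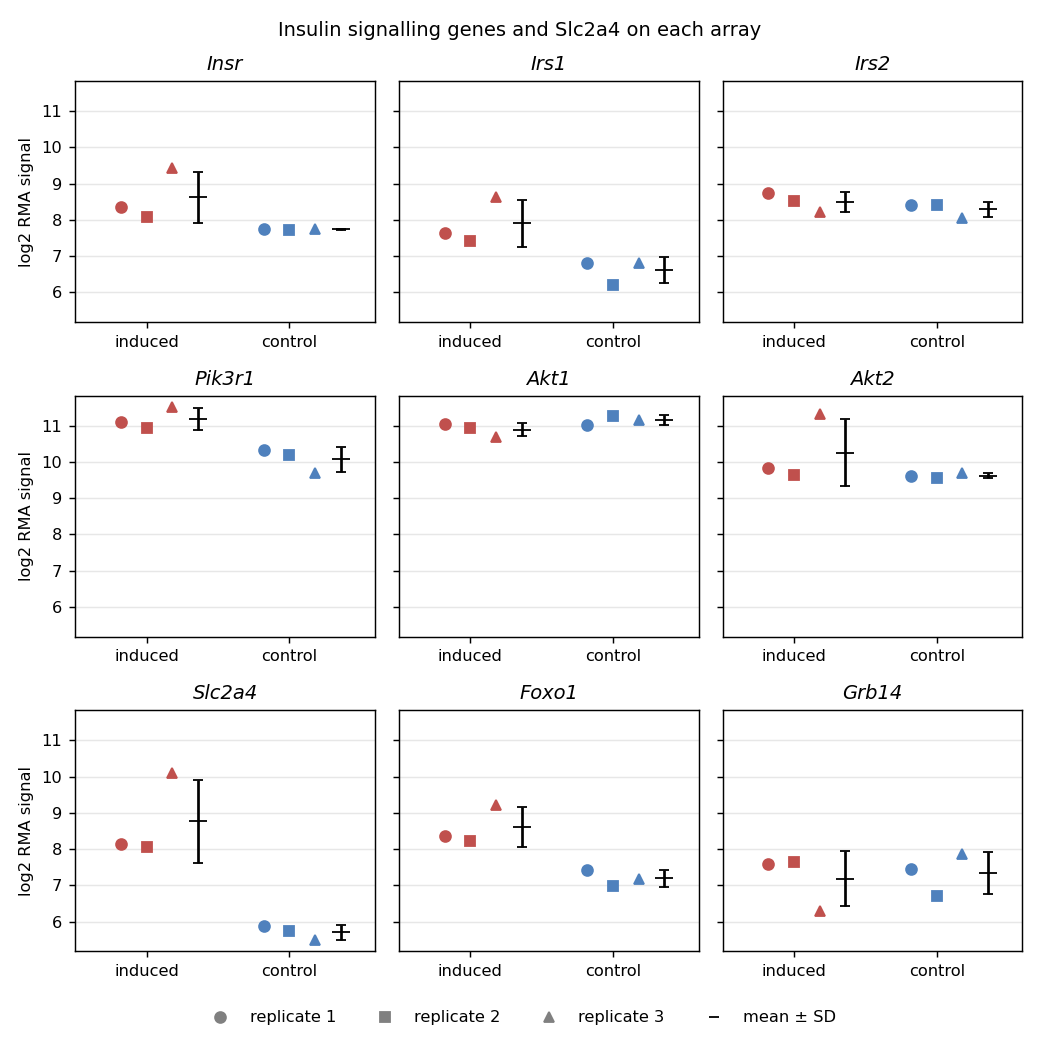
Log2 RMA signal (vertical axis) of the 9 genes on each of the 3 induced and 3 control arrays, with the mean and SD of each group beside the points. Slc2a4 was at 8.06 or above on all induced arrays and at 5.88 or below on all control arrays, and induced replicate 3 (triangle) was the highest array for Insr, Irs1, Pik3r1, Akt2, Slc2a4 and Foxo1 and the lowest for Akt1 and Grb14.

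The receptor itself, Insr, read 8.35, 8.09 and 9.42 on induced replicates 1 to 3, against 7.76, 7.72 and 7.74 on control replicates 1 to 3. The control arrays were almost equal, and induced replicate 3 was far above the other induced arrays. The mean was 8.62 ± 0.70 in induced cells and 7.74 ± 0.02 in control cells (SD, n = 3 arrays each), a difference of 0.88 (SE 0.33, 95% interval 0.09 to 1.66) that did not pass over all genes (adjusted p = 0.246). Without induced replicate 3 the difference was 0.48 (adjusted p = 0.108). Over the 16 alternative fits the adjusted p ran from 0.108 to 0.481.

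Of the docking proteins that carry the signal onward, Irs1 read 7.65, 7.41 and 8.64 on the induced arrays, against 6.82, 6.20 and 6.81 on the control arrays. The groups were apart, again with induced replicate 3 on top. Irs1 differed by 1.29 (SE 0.34, adjusted p = 0.144), with means of 7.90 ± 0.65 in induced and 6.61 ± 0.35 in control cells (SD, n = 3). With array weights it passed, at 1.13 (adjusted p = 0.0468, and 0.0468 to 0.377 over all alternatives).

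Irs2, the other widely expressed docking protein, read 8.75, 8.53 and 8.21 on the induced arrays, against 8.41, 8.40 and 8.06 on the control arrays. The groups overlapped, and replicate 3 was the lowest array in each. Its difference was 0.21 (SE 0.18, 95% interval -0.21 to 0.64, adjusted p = 0.598). It was 0.08 without induced replicate 1, 0.36 without induced replicate 3 and 0.10 without control replicate 3. The within-array difference Irs1 minus Irs2, which asks whether the genes changed unequally, was -1.10, -1.12 and 0.43 on induced arrays, against -1.59, -2.19 and -1.25 on control arrays. All induced values lay above all control values, which gives the smallest p that an exact two-sided permutation test of 3 against 3 arrays allows (p = 0.1, and 0.125 adjusted over 5 gene pairs).

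Irs3, a docking protein that rodents have and that is known from rodent fat cells, read 7.36, 7.07 and 8.71 on the induced arrays, against 6.83, 6.76 and 6.95 on the control arrays. Its groups were apart but the difference of 0.87 did not pass (SE 0.41, adjusted p = 0.333), and it was 0.37 without induced replicate 3. Induced replicate 3 was also the highest array for Sh2b2, an adaptor that binds the activated insulin receptor, which read 8.74, 8.49 and 9.83 in induced cells, against 7.73, 7.93 and 7.90 in control cells. Sh2b2 stood at 1.17 (adjusted p = 0.161), and at 0.76 without induced replicate 3, where it passed (adjusted p = 0.0393, and 0.0393 to 0.366 over all alternatives).

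The regulatory subunit p85α of PI3-kinase, encoded by Pik3r1, read 11.11, 10.93 and 11.53 on the induced arrays, against 10.34, 10.19 and 9.69 on the control arrays. The lowest induced array was above the highest control array, and induced replicate 3 was only 0.51 above the mean of the other induced arrays. Means were 11.19 ± 0.31 in induced and 10.07 ± 0.34 in control cells (SD, n = 3), and the difference was 1.12 (SE 0.23, 95% interval 0.58 to 1.66, adjusted p = 0.0898). Without both replicate 3 arrays it was 0.75 (adjusted p = 0.0399), and with array weights 0.98 (adjusted p = 0.0296). The adjusted p ran from 0.0296 to 0.241 over all alternatives.

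Of 12 other measured PI3-kinase subunits and phosphoinositide enzymes, 0 passed in either direction, and the median difference was 0.06. Of these, 3 were wholly above and 1 wholly below control, beside 12.0% and 13.4% of all genes. The catalytic subunit Pik3ca, which Pik3r1 holds and stabilizes, had an estimate of -0.12 (adjusted p = 0.574), and Pik3r2, the other p85 gene, one of 0.03 (adjusted p = 0.936). Both of these genes were picked for their role and lie outside the naming rule. By the rule, the lipid kinase Pikfyve stood at 0.46, the class II PI3-kinase Pik3c2a at 0.34, and Pdpk1, the kinase that phosphorylates Akt, at 0.32, with adjusted p = 0.286, 0.205 and 0.341. These 3 had induced arrays wholly above control arrays. For Pdpk1 the margin was very small, since induced replicate 2 and control replicate 2 both rounded to 9.40. Without induced replicate 3, Pikfyve stood at 0.25 and Pdpk1 at 0.18.

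RefSeq promoter windows in the rat build GRCr8 were given for 7 of the 9 genes. Those of 3 genes whose arrays were apart are shown, each being the 250 bases before the listed transcription start, 5′ to 3′ on the gene's strand. The window of Foxo1, whose arrays were also apart, is not shown and held 0 of the motifs marked below. Capitals mark the FoxO core GTAAACA (or its reverse complement TGTTTAC) and the GC box GGGCGG (or CCGCCC), since Foxo1 is among the genes and GC boxes are common in promoters of widely expressed genes. The window of Insr is on the minus strand at chr12:6128804-6129053, and lies within the annotated span of Insr, which begins further upstream. Those of Irs1 (chr9:91053960-91054209) and Pik3r1 (chr2:34697661-34697910) are also on the minus strand, just upstream of the annotated gene.
Insr: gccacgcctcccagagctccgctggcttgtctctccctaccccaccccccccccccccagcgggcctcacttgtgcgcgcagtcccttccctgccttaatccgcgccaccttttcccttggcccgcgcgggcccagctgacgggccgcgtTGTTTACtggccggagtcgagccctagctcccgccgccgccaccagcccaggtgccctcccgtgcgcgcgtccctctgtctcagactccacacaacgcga
Irs1: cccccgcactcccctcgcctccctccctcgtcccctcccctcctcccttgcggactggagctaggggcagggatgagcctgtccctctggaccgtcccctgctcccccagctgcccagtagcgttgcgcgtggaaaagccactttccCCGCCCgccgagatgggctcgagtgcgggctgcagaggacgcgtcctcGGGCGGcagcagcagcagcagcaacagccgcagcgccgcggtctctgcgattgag
Pik3r1: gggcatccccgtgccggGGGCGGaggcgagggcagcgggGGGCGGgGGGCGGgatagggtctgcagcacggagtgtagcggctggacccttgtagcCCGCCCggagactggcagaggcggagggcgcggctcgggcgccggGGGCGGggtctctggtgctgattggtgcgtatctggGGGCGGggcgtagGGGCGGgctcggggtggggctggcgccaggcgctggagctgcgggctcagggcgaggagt

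The Insr window held 1 FoxO core, from 100 to 94 bases before the start, and it was the only one among the 7 windows. Of 33469 rat promoter windows of this length, 3.21% held that core. GC boxes were found in the windows of Pik3r1 (7), Grb14 (4) and Irs1 (2), and in 30.5% of all windows. The E-box CACGTG and the C/EBP palindrome TTGCGCAA were in 0 of the 7, beside 5.59% and 0.140% of all windows. Every motif was searched on both strands, and none of the 4 overlapped another in the windows shown. These motifs were chosen with the windows in view, and a match of letters is a description, not a binding site.

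Akt2, the isoform tied to glucose uptake in fat, read 9.83, 9.63 and 11.32 on the induced arrays, against 9.61, 9.55 and 9.69 on the control arrays. Only induced replicate 3 was clearly higher, by 1.59 above the mean of the other induced arrays, and induced replicate 2 was below control replicate 3. The difference was 0.64 (SE 0.43, 95% interval -0.38 to 1.66, adjusted p = 0.494), and 0.11 without induced replicate 3 (adjusted p = 0.723). Akt1, the ubiquitous isoform, read 11.04, 10.94 and 10.69 on the induced arrays, against 11.01, 11.28 and 11.16 on the control arrays. Induced replicate 3 was the lowest of its 6 arrays, and the estimate was -0.27 (SE 0.14, 95% interval -0.60 to 0.07, adjusted p = 0.381), or -0.16 without induced replicate 3.

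Set against each other within arrays, Akt2 minus Akt1 was -1.21, -1.31 and 0.64 on induced arrays, against -1.40, -1.73 and -1.47 on control arrays. The groups were apart (difference 0.91, exact permutation p = 0.1, the smallest possible, and 0.125 adjusted over 5 pairs). Without both replicate 3 arrays this difference was 0.31, and no p under 0.333 is possible there.

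Further along the Akt and mTORC1 branch, 0 of 18 measured genes passed, with a median of 0.02, while 4 had induced arrays wholly above control arrays and 0 wholly below, beside 12.0% and 13.4% of all genes. Pde3b, the phosphodiesterase through which insulin restrains lipolysis, read 8.17, 8.19 and 10.58 on the induced arrays, against 6.98, 6.76 and 6.60 on the control arrays. It differed by 2.20 (SE 0.63, adjusted p = 0.162), and by 1.40 without induced replicate 3, where it passed (adjusted p = 0.00734, and 0.00634 to 0.381 over all alternatives). Acly, an Akt substrate that makes acetyl-CoA for fat synthesis, read 11.55, 11.48 and 12.69 on the induced arrays, against 10.03, 10.03 and 10.30 on the control arrays. It stood at 1.78 (adjusted p = 0.0762) and at 1.39 without induced replicate 3 (adjusted p = 0.00554, and 0.00293 to 0.235 over all alternatives). Prkci, an atypical protein kinase C, stood at 0.54 (adjusted p = 0.313), and at 0.27 without induced replicate 3. The core mTORC1 genes Mtor, Rptor and Rps6kb1, picked for their role, had estimates of 0.03, 0.01 and 0.03.

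Slc2a4, the transporter that insulin calls to the surface of fat and muscle cells, read 8.15, 8.06 and 10.09 on the induced arrays, against 5.88, 5.74 and 5.48 on the control arrays. The gap between the lowest induced and the highest control array was wider than the whole spread of the control arrays, and control levels were close to the array medians. Means were 8.77 ± 1.15 in induced and 5.70 ± 0.20 in control cells (SD, n = 3). The difference of 3.07 (SE 0.53, 95% interval 1.80 to 4.33) missed the threshold (adjusted p = 0.067). It was higher than that of 99.7% of genes. RMA compresses low signals, so the fold from a dim control level may be too small.

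Induced replicate 3 was the highest array for Slc2a4. Without it the difference was 2.40 (adjusted p = 0.00123), without both replicate 3 arrays 2.29 (adjusted p = 0.000738) and with array weights 2.56 (adjusted p = 0.0081), and all of these passed. Over the 16 alternatives it ran from 2.29 to 3.42, with adjusted p from 0.000738 to 0.208. Slc2a4 was higher in all 3 induced arrays. Control replicate 1, whose adipocyte markers were the highest of the control arrays, read 5.88 for Slc2a4, beside 5.74 on control replicate 2.

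**Figure D2:**
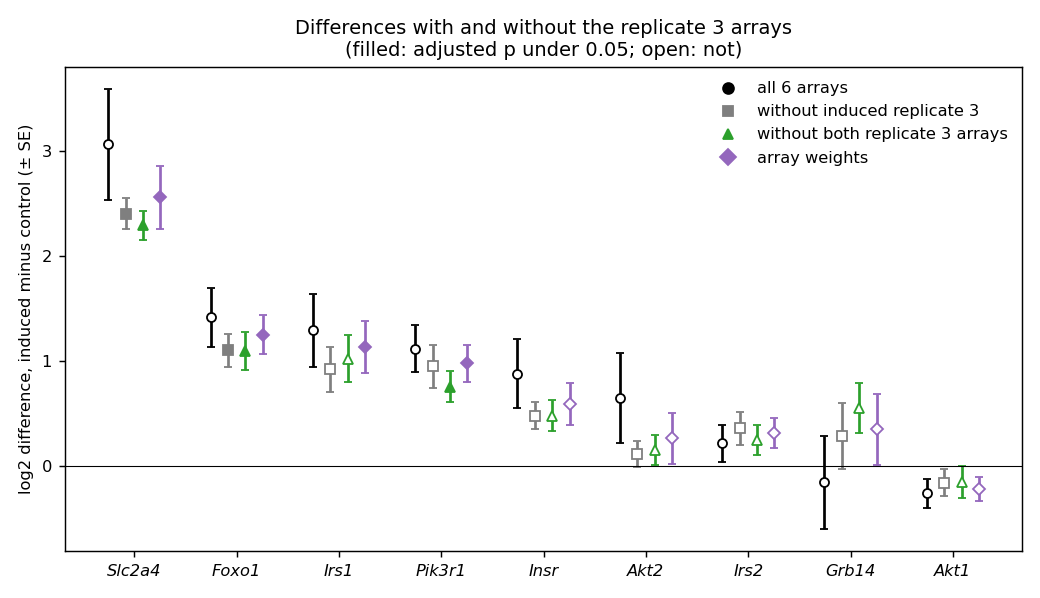
Log2 difference between induced and control cells with its SE (vertical axis) for the 9 genes, with all 6 arrays, without induced replicate 3, without both replicate 3 arrays and with array weights; filled symbols passed at an adjusted p under 0.05. Slc2a4 was smaller without induced replicate 3 (2.40) than with it (3.07) yet passed only without it or with weights, and Grb14 changed sign.

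Of 12 other measured sugar transporters and hexokinases, 0 passed in either direction, and the median difference was 0.04. Of these, 2 were wholly above and 1 wholly below control, beside 12.0% and 13.4% of all genes. Slc2a1, the basal glucose transporter Glut1, read 9.21, 9.26 and 8.46 on the induced arrays, against 9.40, 8.94 and 9.31 on the control arrays, and the groups overlapped (difference -0.24, adjusted p = 0.686). Slc2a4 minus Slc2a1 was -1.06, -1.20 and 1.63 on induced arrays, against -3.52, -3.19 and -3.83 on control arrays. This within-array difference was 3.30 higher in induced cells (exact permutation p = 0.1, the smallest possible, and 0.125 adjusted over 5 pairs) and 2.23 higher without both replicate 3 arrays. Slc2a9, a urate transporter, stood at 0.89 (adjusted p = 0.142), Slc2a13, a myo-inositol transporter, at 0.59 (adjusted p = 0.177) and Slc2a10 (Glut10) at -0.77 (adjusted p = 0.19). Each of these 3 had groups that did not overlap. Their adjusted p over all alternatives ran from 0.0315 to 0.326 for Slc2a9, 0.0318 to 0.43 for Slc2a13 and 0.0773 to 0.452 for Slc2a10.

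Among 25 measured genes for the traffic of Glut4 vesicles, 1 rose and 0 fell, with a median of -0.06. Induced arrays were wholly above control for 6 and wholly below for 5, beside 12.0% and 13.4% of all genes. The gene that rose was Trarg1, whose protein travels with Glut4 vesicles in fat cells. It read 10.45, 10.12 and 12.03 on the induced arrays, against 7.64, 6.16 and 5.98 on the control arrays, with control replicate 1 the highest control array. It rose by 4.27 (SE 0.62, adjusted p = 0.0456). The call was lost without induced replicate 1 (adjusted p = 0.16), induced replicate 2 (0.119), control replicate 2 (0.16) or control replicate 3 (0.14). It was also lost with the replicate block (adjusted p = 0.0879) and with all features fitted (0.0704). Over all alternatives the adjusted p ran from 0.00617 to 0.16.

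Sort1, the sorting receptor sortilin of Glut4 vesicles, read 9.33, 9.25 and 10.99 on the induced arrays, against 8.10, 7.81 and 8.74 on the control arrays. Its groups were apart, and the difference of 1.64 did not pass (SE 0.50, adjusted p = 0.176), nor did that of 1.08 without induced replicate 3. Without both replicate 3 arrays Sort1 stood at 1.34 and passed (adjusted p = 0.00706, and 0.00706 to 0.426 over all alternatives). Ralgapa2, a subunit of the Ral GTPase-activating complex that Akt phosphorylates, stood at 1.07 (adjusted p = 0.11), and without control replicate 1 at 1.34, where it passed (adjusted p = 0.0421, and 0.031 to 0.302 over all alternatives). Lnpep, the insulin-regulated aminopeptidase that shares the vesicles with Glut4, was picked for its role. It read 10.68, 10.60 and 10.88 on the induced arrays, against 10.16, 9.99 and 9.83 on the control arrays, a difference of 0.73 (SE 0.14, adjusted p = 0.0793). On induced replicate 3, Slc2a4, Trarg1 and Sort1 were 1.98, 1.75 and 1.70 above the mean of the other induced arrays, and Lnpep was 0.24 above it. The largest negative differences of the list with groups apart, named after their values were seen, were those of Gga2, a sorting adaptor, at -0.96 (adjusted p = 0.0678), and Myo5a, a vesicle motor, at -0.82 (adjusted p = 0.102).

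Rhoq, the small GTPase TC10 of a PI3-kinase-independent route from the receptor, was the 1 gene of 15 measured adaptors and docking proteins that passed, and it fell. It read 8.33, 8.65 and 8.57 on the induced arrays, against 9.35, 9.40 and 9.53 on the control arrays. The groups were apart and induced replicate 3 lay between the other induced arrays. The difference was -0.91 (SE 0.13), which passed (adjusted p = 0.0382). The call was lost without any one of 5 arrays, the exception being induced replicate 3 (adjusted p = 0.0238). The values were 0.159 without induced replicate 1 and 0.119 without induced replicate 2. They were 0.0803, 0.144 and 0.131 without control replicates 1, 2 and 3. The call was also lost with the replicate block (adjusted p = 0.0844), an intensity trend (0.0588) and all features fitted (0.0704). The median of that list was -0.10, with 2 genes wholly above and 5 wholly below control, beside 12.0% and 13.4% of all genes.

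**Figure D3:**
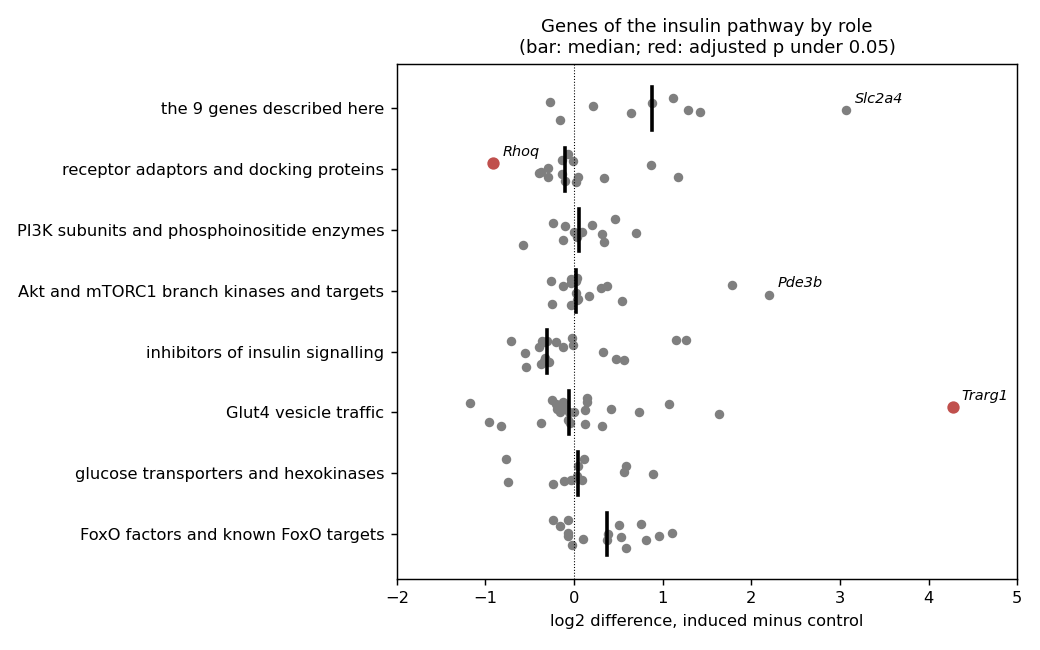
Log2 difference between induced and control cells (horizontal axis) of each measured gene of the 9 described here and of 7 lists of other insulin pathway genes; the vertical bar is each list's median and red points passed at an adjusted p under 0.05. Trarg1 (4.27) and Rhoq (-0.91) are the only red points, and the list medians other than that of the 9 genes lie between -0.30 and 0.37.

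Foxo1, which Akt inactivates and which takes part in fat cell differentiation, read 8.36, 8.22 and 9.23 on the induced arrays, against 7.42, 6.97 and 7.18 on the control arrays. The groups were apart, with induced replicate 3 highest. Means were 8.61 ± 0.55 in induced and 7.19 ± 0.22 in control cells (SD, n = 3), and the difference was 1.42 (SE 0.28, 95% interval 0.74 to 2.09, adjusted p = 0.0866). It passed without induced replicate 3, at 1.10 (adjusted p = 0.0207), without both replicate 3 arrays, at 1.09 (adjusted p = 0.0256), and with array weights, at 1.25 (adjusted p = 0.0169). Over all alternatives the adjusted p ran from 0.0169 to 0.266. The second Foxo1 feature was dimmer, at 6.20, 6.26 and 6.35 on the induced arrays, against 5.97, 5.50 and 5.59 on the control arrays. It pointed the same way with groups apart but a smaller difference of 0.59, and its 3 induced arrays lay close together.

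Of its relatives, Foxo3 read 9.25, 9.13 and 8.97 on the induced arrays, against 8.73, 8.81 and 8.67 on the control arrays, a difference of 0.38 (adjusted p = 0.181) with groups apart. Foxo1 minus Foxo3 was -0.89, -0.92 and 0.27 on induced arrays, against -1.31, -1.83 and -1.50 on control arrays (difference 1.04, exact permutation p = 0.1, the smallest possible, and 0.125 adjusted over 5 pairs). In the list of FoxO factors and known FoxO targets 0 of 16 measured genes passed, the median was 0.37, and 5 genes had induced arrays wholly above control arrays with 0 below, beside 12.0% and 13.4% of all genes. Txnip, an inhibitor of glucose uptake, stood at 1.10, and the stress-responsive sestrins Sesn1 and Sesn3 at 0.96 and 0.75, with adjusted p = 0.122, 0.079 and 0.0975. Their adjusted p over all alternatives ran from 0.0785 to 0.313 for Txnip, 0.0205 to 0.245 for Sesn1 and 0.032 to 0.295 for Sesn3. The sestrins were little raised on induced replicate 3, by 0.38 and 0.19 above the mean of the other induced arrays. Pck1 and Igfbp1, known FoxO targets picked for their role, stood at 0.81 and -0.07 (adjusted p = 0.577 and 0.872). Pck1 read 7.98 on induced replicate 3 and 5.71 or less on the other 5 arrays.

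Grb14, the restraint on the receptor, read 7.60, 7.65 and 6.30 on the induced arrays, against 7.45, 6.70 and 7.87 on the control arrays. The groups overlapped and induced replicate 3 was the lowest of all 6 arrays. The estimate was -0.16 (SE 0.44, 95% interval -1.22 to 0.90, adjusted p = 0.897), and without induced replicate 3 it was 0.28. The related adaptor Grb10 read 10.15, 10.16 and 9.36 on the induced arrays, against 10.12, 10.03 and 10.54 on the control arrays, with the same array lowest. Grb14 minus Grb10 was -2.55, -2.51 and -3.07 on induced arrays, against -2.67, -3.33 and -2.67 on control arrays, and these overlapped (exact permutation p = 0.5).

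Of 20 measured inhibitors of insulin signalling 0 passed in either direction, with a median of -0.30. Induced arrays were wholly above control for 3 of these inhibitors and wholly below for 4, beside 12.0% and 13.4% of all genes. Their 15 negative estimates included that of Socs1, a suppressor of cytokine signalling that also acts on IRS proteins, at -0.55 (adjusted p = 0.168), picked for its role. The largest differences among those with groups apart were positive: Ptpre, a receptor phosphatase, at 1.26 (adjusted p = 0.143), Deptor, an inhibitor of mTOR complexes, at 1.15 (adjusted p = 0.15), and Phlpp2, a phosphatase of Akt, at 0.56 (adjusted p = 0.377), or 0.21 without induced replicate 3. With array weights Ptpre passed, at 1.22 (adjusted p = 0.0456, and 0.0456 to 0.374 over its alternatives). Over all 118 measured genes of the 7 pathway lists, 1 rose and 1 fell, and the median was -0.01, the same as over all genes. Induced arrays were wholly above control arrays for 25 of the 118 and wholly below for 16, against 12.0% and 13.4% of all genes.

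**Figure D4:**
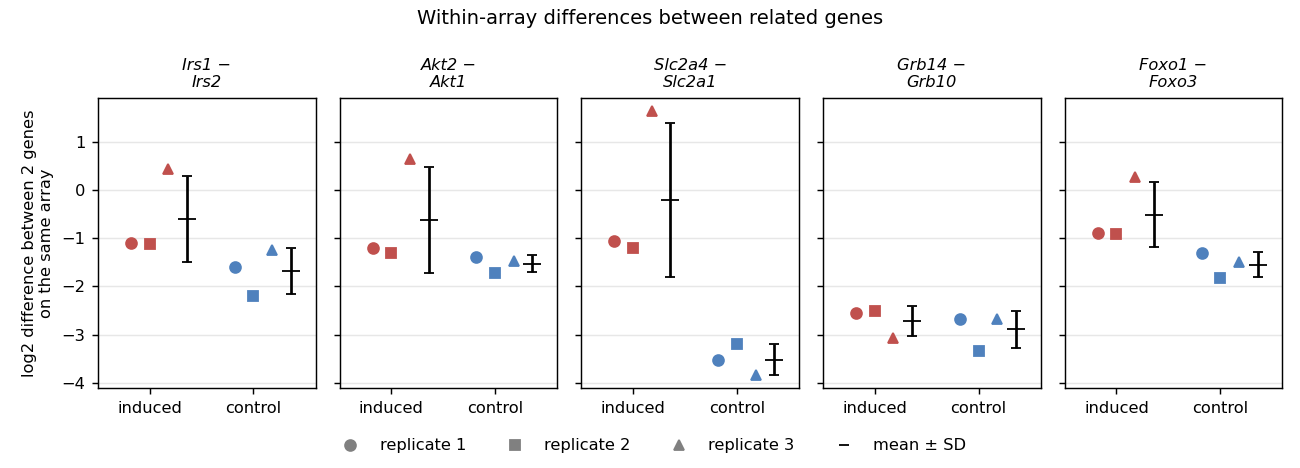
Log2 difference between 2 related genes on the same array (vertical axis) for 5 pairs, with 3 induced and 3 control arrays and the mean and SD of each group. Induced arrays were above control arrays for all pairs but Grb14 minus Grb10, and induced replicate 3 was the highest array in those 4 pairs.

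The 9 genes also differed in how they followed induced replicate 3. That array was over 1 on the log2 scale from the mean of the other induced arrays for 5 of the 9, against 8.20% of all genes: Slc2a4, Akt2, Insr and Irs1 were higher there by 1.98, 1.59, 1.20 and 1.11, and Grb14 was lower by 1.33. Foxo1 and Pik3r1 were higher by 0.94 and 0.51, and Irs2 and Akt1 were lower by 0.43 and 0.30. Of 11 adipocyte markers, 10 were highest of the induced arrays there and 1 lowest. Of 9 stromal precursor markers, 6 were lowest of the induced arrays there and 3 highest, and of 12 macrophage and leukocyte markers 11 were lowest and 1 highest. The part of cell makeup in these values was not tested.

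The genes most alike in pattern were found by Pearson correlation over the 6 arrays among named genes with an SD of at least 0.5. For Slc2a4 they were Gpat3, an enzyme of triglyceride synthesis (r = 0.9995), Tm6sf2, a protein of lipid handling (0.9992), and Tob2 (0.9991). Tm6sf2 read 7.63, 7.59 and 9.60 on the induced arrays, against 5.45, 5.15 and 5.11 on the control arrays, in the same order of arrays as Slc2a4. For Akt2 they were Acacb, the acetyl-CoA carboxylase of mitochondria (r = 0.9965), Acbd4 (also 0.9965) and Mrpl12 (0.9959). Acacb read 5.44, 5.06 and 7.08 on the induced arrays, against 5.12, 4.95 and 5.11 on the control arrays. Insr was most like Pex16, a peroxisome assembly gene (r = 0.9984), Irs1 like S100a1 (0.9938), Pik3r1 like Cyp2d4 (0.9976) and Foxo1 like Pm20d2 (0.9974). Akt1 was most like Tnrc18 (r = 0.9905) and Grb14 like Tmem100 (0.9704).

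The 3 closest genes of Irs2 were the immune gene Tlr7 (r = 0.9713), Sned1 (0.9673) and the immune gene Cd4 (0.9634). Tlr7 read 7.16, 6.49 and 4.53 on the induced arrays, against 5.92, 6.07 and 4.43 on the control arrays, with replicate 3 the lowest array of each group, as for Irs2. Of the 12 macrophage and leukocyte markers, 11 were lowest on replicate 3 among the induced arrays and 11 among the control arrays, Cd68 being highest on induced replicate 3 (9.45). The part of macrophage RNA in the Irs2 signal was not tested. These correlations describe 6 arrays in 2 groups with 1 array standing apart, and were picked as the highest among 2442 genes (2443 for Irs2 and Akt1).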

How the data were processed

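Per the labels' protocols, 6 μg of total RNA from each of 3 induced and 3 control cultures was made into biotin-labelled cRNA and hybridised. The log2 signals were deposited by the authors after RMA (version not stated in the labels), which corrects background, quantile-normalizes and summarises probes, per the submitters' processing notes. The log2 scale was inferred from the range of the signals, none of which exceeds 13.55. RMA gives no detection call, and array number limits the precision.

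Of 36685 features, 18511 had 1 gene symbol in the platform annotation, 575 several and 17599 none. A symbol was represented by its brightest feature (mean over 6 arrays), giving 18166 genes, 291 of them chosen among several features. The group difference was fitted by lmFit and eBayes of limma 3.58.1 under R 4.3.3 (two-sided, 4 residual and 2.65 prior degrees of freedom), with Benjamini-Hochberg adjustment over all genes and a threshold of 0.05. The fit was tested on simulated data with independent noise, of equal spread over the 6 arrays for each gene. Such data hold no array that stands apart, so they cannot show how induced replicate 3 affects the fit. Single within-array differences were compared with exact permutation tests.

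The 9 genes and the pathway lists were chosen with earlier results of these data known. Genes named beside the 9 were, per list, those that passed and up to 3 with the largest difference among those whose groups did not overlap. For each of the 9, genes were also named from among the 3 of highest correlation with it. Others are said to be picked for their role or named after their values were seen. Cell type markers and the genes compared in pairs were listed separately. Replicate numbers are shared by the groups, but the labels do not say that a number marks a shared animal, day or batch. The numbers were therefore not taken as pairs. Deviations from group means of same-numbered arrays correlated at 0.023, 0.12 and 0.154, which cannot decide whether the arrays were paired. Of 12 macrophage and leukocyte markers, 11 were lowest on replicate 3 in each group. Alternatives were a replicate block, each array left out, both replicate 3 arrays left out, array weights, an intensity trend, a robust prior, median centring, quantile normalization over named genes, a filter on dim genes, all features and averaged features. Promoter windows were from RefSeq, build GRCr8.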

Additional observations from a re-analysis of the deposited data

How the results depend on the processing

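With the replicate block, 12 genes in all, 0 of the 9 and 0 of 118 pathway genes passed, against 136, 0 and 2 in the fit without it. The numbers were not taken as pairs, since the labels do not give pairing. Not every array's deviations correlated best with those of its own number, which does not decide the question. Without both replicate 3 arrays the counts were 740, 3 and 10, and with array weights 929, 4 and 12 (4.07% and 5.11% of all genes). With an intensity trend 1 pathway gene passed, and with all features fitted 69 features in all and 0 of the pathway genes did, with more features to adjust over. With each array left out in turn the counts ran from 2 to 557 for all genes, 0 to 2 for the 9 and 0 to 7 for the pathway, the highest each time without induced replicate 3 (3.07% of all genes). Grb14 turned positive without both replicate 3 arrays (0.55) and with array weights (0.35), and ran from -0.48 to 0.28 with single arrays left out. Of the 144 alternative values of the 9 genes, 131 kept their direction and their side of the threshold, 9 kept direction and passed, and 4 turned, all of Grb14. Of 335 values of the other named genes, 303 kept both, 18 passed, 14 no longer passed and 0 turned. The 14 were all of Trarg1 and Rhoq, the only ones that had passed in the main fit. The cause of these shifts was not tested. Signal over background is not given in the values, so what dim signals hide cannot be read from them.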
